A study of Mus musculus with 21 samples.

Results

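A set of 7 genes of matrix remodelling was followed here in mouse dendritic cells: 5 matrix metalloproteinases (Mmp2, Mmp9, Mmp12, Mmp13 and Mmp14), Timp1, which encodes a secreted inhibitor of such enzymes, and Lox, which encodes lysyl oxidase. They were chosen by name, as the 10 probes annotated to them among 25697 probes on the array, and they make up 7 of 16593 named genes. Mmp13 has 3 probes, Timp1 has 2 and the other genes have 1 each. The cells were grown from bone marrow of C57Bl6 mice, as crel-/-relb-/- cells lacking both c-Rel and RelB, as relb-/- cells, or as WT cells. c-Rel and RelB are subunits of NF-kB, and no group lacked c-Rel alone. Cells were left unstimulated (0 h) or were given CpG, a ligand of TLR9, or Pam3CSK4, a ligand of TLR2, for 1, 8 or 24 h. The 21 samples are 1 Illumina array for each genotype in each of these 7 conditions, and the sources used here do not say which cultures or animals they came from.

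Matrix metalloproteinases are zinc-dependent endopeptidases that cut collagens, elastin and other proteins around the cell, and most are secreted as inactive precursors. Tissue inhibitors of metalloproteinases bind their active sites, while lysyl oxidase works in the opposite direction and joins collagen and elastin chains into stable fibres. In dendritic cells, matrix metalloproteinases are best known for helping the cells pass through basement membranes on their way out of tissue, and several of their genes respond to NF-kB and AP-1 in other cells.

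Among the 7 genes, promoters of Mmp2, Mmp9 and Lox were not searched, and those searched were of Mmp12, Mmp13, Mmp14 and Timp1. The promoters of the last 3 are printed because Mmp13 and Mmp14 rose together at 8 h and Timp1 differed between all 3 genotypes. Each is the 250 bases before the gene's annotated start, on the plus strand of the build GRCm38.p6, from RefSeq. Capitals mark motif matches on either strand: AP-1 (TGANTCA), the interferon response element (GAAA repeated with any 2 bases between) and the TATA box (TATAAA). The NF-kB consensus was searched for as well.
Mmp13, chr9:7272264-7272513: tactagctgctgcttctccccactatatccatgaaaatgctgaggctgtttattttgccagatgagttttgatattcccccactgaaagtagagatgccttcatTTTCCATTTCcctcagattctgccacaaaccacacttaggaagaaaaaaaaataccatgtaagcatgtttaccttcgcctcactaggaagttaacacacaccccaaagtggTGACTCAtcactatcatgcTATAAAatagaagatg
Mmp14, chr14:54431348-54431597: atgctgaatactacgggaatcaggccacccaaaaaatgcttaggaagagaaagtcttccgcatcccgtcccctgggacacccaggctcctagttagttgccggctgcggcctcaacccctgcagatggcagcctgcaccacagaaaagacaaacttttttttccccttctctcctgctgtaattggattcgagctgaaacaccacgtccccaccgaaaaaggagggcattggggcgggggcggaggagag
Timp1, chrX:20869916-20870165: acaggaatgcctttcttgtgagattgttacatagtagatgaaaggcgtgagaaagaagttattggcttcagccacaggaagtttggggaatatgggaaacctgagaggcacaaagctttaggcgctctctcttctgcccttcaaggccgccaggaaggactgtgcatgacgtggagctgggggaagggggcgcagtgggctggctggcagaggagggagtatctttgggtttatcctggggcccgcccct

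The Mmp13 window held an AP-1 match, TGACTCA, starting 35 bases before the gene start, a TATA match at 16 bases and an interferon-element match on the minus strand at 146 bases. It held no match to the NF-kB consensus, and the windows of Mmp14 and Timp1 held none of the 4 motifs. Mmp12 has 2 annotated starts, and an NF-kB consensus match lay before the first and an AP-1 match before the second. Of 32851 promoter windows of this length, 6.75% held the AP-1 motif, 7.25% the NF-kB consensus, 2.98% the interferon element and 12.4% the TATA box. These matches describe letters only, and no binding was measured.

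Values are the authors' deposited normalized probe intensities, which are not background-subtracted, so folds of dim genes are understated. The median of all intensities, 47.3, serves as a mark of dim signal. A gene was tested where its value ranked 3 from the top lay above that median, and 10587 genes were. All 7 genes passed, Lox only through its 8 and 24 h arrays. Its rise over 0 h is in part built into the filter and is given as values with no test. Differences are log2 differences ± standard error from limma's linear model with genotype and condition as terms. A gene was called where its Benjamini-Hochberg adjusted p over all genes tested was below 0.05. With 1 array per genotype and condition, a p-value here weighs a difference against its own variation between conditions or genotypes, not against the spread of repeated cultures.

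Rel, the gene of c-Rel, lay at 33.6 to 45.5 in crel-/-relb-/- cells, below 47.3 on every array, against 100.9 to 214.1 in relb-/- and 61.1 to 206.5 in WT cells. Relb had a median of 99.6 in crel-/-relb-/-, 109.7 in relb-/- and 227.5 in WT cells, and the highest crel-/-relb-/- and relb-/- values overlapped the lowest WT value, 148.3. The crel-/-relb-/- CpG 24 h array stood apart, with a residual SD over genes of 0.189 against 0.0966 to 0.14 on the other arrays, and results that rest on it are given with and without it. Of 12 dendritic cell markers, Flt3, Xcr1 and Cd209a lay below the median intensity on every array, and the summed level of the list was 6253 to 10512 in crel-/-relb-/-, 5884 to 7544 in relb-/- and 7506 to 9609 in WT cells. Of 8 tested, 2 were higher and 5 lower at 24 h than at 0 h, among them Irf4 (-1.38) and Batf3 (-1.17). Summed levels of 13 neutrophil markers were 6575 to 26139 at 8 and 24 h against 1380 to 3114 at 0 and 1 h, with Mpo and Ctsg below the median intensity on every array. Of 10 neutrophil markers tested, 3 were higher at 24 h than at 0 h (Lcn2, S100a8 and Csf3r, the last 2 by 2.19 and 0.36 on the log2 scale) and 5 were lower. The median log2 difference of the 10 was -0.31. The sum is weighted to bright genes, and S100a8 alone ranged from 339 to 7015 over the 21 arrays. Summed levels of 11 macrophage and monocyte markers were 4272 to 11672 at the later times against 2934 to 4474 at the earlier ones. Among 12 stromal markers, which would mark fibroblasts, Col1a1, Lum and Pdgfrb lay below the median intensity on every array and the sum was 977 to 1906 at the later times against 1616 to 2447 at the earlier ones. Of 6 tested, 2 were higher and 1 lower at 24 h than at 0 h. Acta2 (1.44, with 303.9 to 524.7 at 24 h against 121.8 to 155.9 at 0 h) and Dcn (0.34) were higher. Thy1 (-2.24, with 244.7 to 428.1 at 24 h against 1199 to 1886 at 0 h) was lower. Thy1 therefore weighs heavily in the fall of the stromal sum, while the median log2 difference of the 6 was 0.10. A sum over 7 genes that mark lymphocytes of the T and natural killer lines was 358 to 410 in crel-/-relb-/-, 314 to 381 in relb-/- and 508 to 580 in WT cells. The part of other cells in the results below was not tested, and in bulk RNA fewer cells of a type and less RNA per cell cannot be told apart.

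Lox, Mmp9 and Mmp2 formed a late group, highest at 24 h and higher with Pam3CSK4 than with CpG. Lox lay below the median intensity before stimulation and at 1 h, at 37.0 to 43.1 over the 9 arrays of those times. At 8 h with CpG it had 70.5 in crel-/-relb-/-, 81.7 in relb-/- and 125.1 in WT cells, and at 24 h it had 275.9, 302.3 and 345.9 in the same genotypes. With Pam3CSK4 the values were 170.2, 178.7 and 318.2 at 8 h and 1064, 1182 and 1651 at 24 h. Every 24 h value lay above every 0 and 1 h value, and the lowest Pam3CSK4 24 h value exceeded the highest CpG 24 h value. The fitted ratio of 24 h to 0 h intensities over both agents was 15.8, which understates the change because the 0 h values lay below the median intensity.

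Mmp9 encodes gelatinase B, which cuts type IV collagen of basement membranes and is also stored in neutrophil granules. At 0 and 1 h it lay at 97.3 to 156.6 on all 9 arrays. With CpG it had 291.2 in crel-/-relb-/-, 241.7 in relb-/- and 465.9 in WT cells at 8 h, and 959.8, 816.1 and 884.4 at 24 h. With Pam3CSK4 it had 434.4, 269.6 and 522.2 at 8 h and 1708, 1229 and 1922 at 24 h. The 3 time groups (0 and 1 h, 8 h, 24 h) did not overlap in any genotype. The 24 h level was 9.15-fold above the 0 h level (3.19 ± 0.12, adjusted p = 1.46e-14) and the 8 h level 2.74-fold above it (1.45 ± 0.12, adjusted p = 6.19e-09).

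Mmp2 encodes gelatinase A, whose precursor is activated at the cell surface by the product of Mmp14. At 8 h it stayed near its unstimulated level: crel-/-relb-/- cells had 408.2 at 0 h, 475.6 with CpG and 487.6 with Pam3CSK4, relb-/- cells had 199.0, 198.8 and 210.9, and WT cells had 280.2, 338.4 and 369.0. At 24 h the CpG arrays had 768.4 in crel-/-relb-/-, 274.6 in relb-/- and 723.3 in WT cells, and the Pam3CSK4 arrays had 1236, 489.0 and 1044. The rise at 24 h over 0 h was 2.39-fold (1.26 ± 0.11, adjusted p = 1.62e-08), while the 8 h difference was 0.20 ± 0.11 and was not called (adjusted p = 0.189). In relb-/- cells with CpG the 24 h level exceeded the 0 h level by only 0.46 on the log2 scale, the smallest of the 6 pairs.

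**Figure D1:**
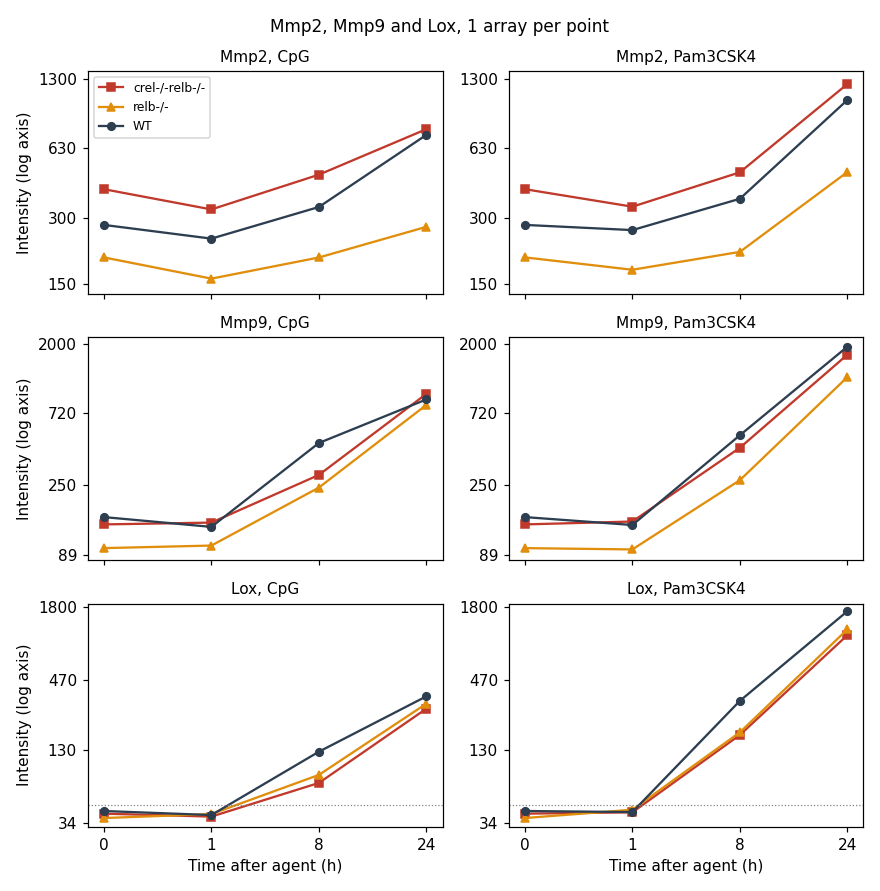
Normalized intensity (log axis) of Mmp2, Mmp9 and Lox against hours of stimulation (times evenly spaced), 1 point per array, with genotypes by colour and marker, a panel for each agent and the median of all intensities, 47.3, as a dotted line. All 3 genes were highest at 24 h with Pam3CSK4, and the relb-/- line of Mmp2 lies below both others at every time.

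Mmp13 and Mmp14, both of which encode enzymes that cut fibrillar collagen, were raised by 8 h. Mmp13 is collagenase-3, and Mmp14 is the membrane-anchored MT1-MMP. Mmp13, by its brightest probe, lay at 1040 to 2142 on the 9 arrays of 0 and 1 h. At 8 h the CpG values were 4126 in crel-/-relb-/-, 4455 in relb-/- and 6360 in WT cells, and the Pam3CSK4 values were 3873, 6266 and 6959. The 8 h level was 3.25-fold above 0 h (1.70 ± 0.23, adjusted p = 5.35e-06, higher in 6 of 6 pairs). Both of these pairs in a genotype share its single 0 h array. At 24 h the CpG values were 6030, 3291 and 3291 and the Pam3CSK4 values 1715, 3588 and 3427. Mmp13 was thus lower at 24 h than at 8 h in 5 of 6 pairs (-0.64 ± 0.19, adjusted p = 0.0153), the exception being crel-/-relb-/- cells with CpG. That call was lost when either Pam3CSK4 8 h or Pam3CSK4 24 h was left out, with a log2 difference of -0.28 in both cases.

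Mmp14 lay at 657.1 to 927.9 on the arrays of 0 and 1 h. With CpG it had 1908 in crel-/-relb-/-, 1832 in relb-/- and 2943 in WT cells at 8 h, and 2785, 1770 and 1776 at 24 h. With Pam3CSK4 it had 2055, 2352 and 2648 at 8 h and 2770, 2217 and 2265 at 24 h. All 12 late values exceeded all 9 early ones. The rises were 2.68-fold at 8 h (1.42 ± 0.15, adjusted p = 2.61e-07) and 2.65-fold at 24 h (1.40 ± 0.15, adjusted p = 2.75e-07), and the 2 late times did not differ beyond error (24 h minus 8 h -0.02, 95% interval -0.28 to 0.24, adjusted p = 0.939).

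Mmp12 and Timp1 had the smallest differences between 24 h and 0 h of the 7 genes. Mmp12, the macrophage elastase, was bright on every array: crel-/-relb-/- cells ranged from 7999 to 10462, relb-/- cells from 6703 to 9894 and WT cells from 5771 to 9307. Neither its 8 h nor its 24 h difference from 0 h was called (0.23 ± 0.10 for both, adjusted p = 0.0687 and 0.0729). Timp1, by its brighter probe, had a lowest, median and highest value of 281.7, 323.9 and 412.8 in crel-/-relb-/-, 514.3, 599.6 and 682.9 in relb-/-, and 369.3, 481.7 and 576.0 in WT cells. It was higher at 8 h than at 0 h by 0.31 ± 0.11 (adjusted p = 0.0313), and that call was lost under 3 of 15 alternatives (adjusted p up to 0.178, without the Pam3CSK4 8 h arrays). The 24 h difference was 0.24 ± 0.11 and was not called by this probe (adjusted p = 0.0987), while the other probe gave 0.33 (adjusted p = 0.0297).

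**Figure D2:**
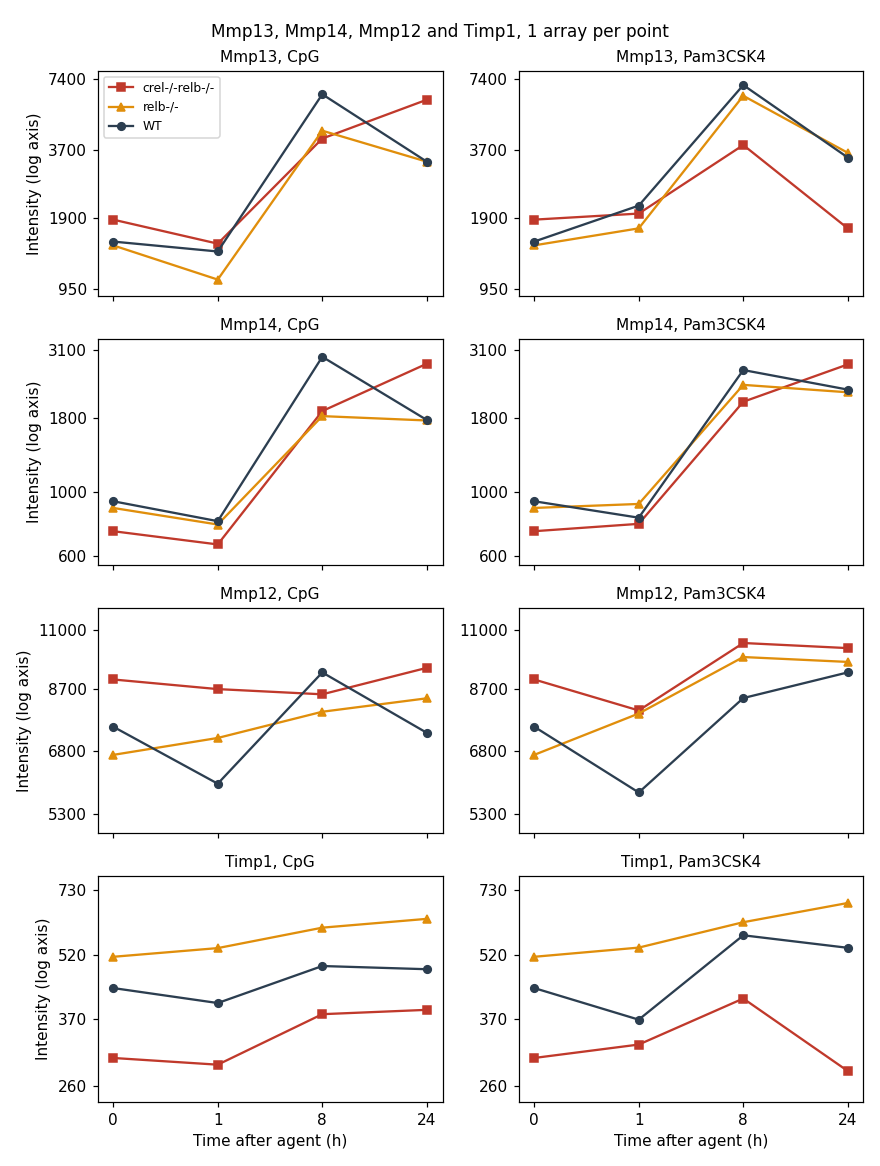
Normalized intensity (log axis) of Mmp13, Mmp14, Mmp12 and Timp1 against hours of stimulation (times evenly spaced), 1 point per array, with genotypes by colour and marker and a panel for each agent. Mmp13 and Mmp14 rose by 8 h, Mmp12 stayed between 5771 and 10462 on all arrays, and in every condition Timp1 was highest in relb-/- and lowest in crel-/-relb-/- cells.

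In counts, limma called 5 of the 7 genes higher and none lower at 8 h against 0 h, where 30.9% of all genes tested were called in either direction. At 24 h against 0 h it was again 5 higher and none lower, with 31.9% of all genes called. Lox is 1 of the 5 at both times and passed the filter through its late arrays, and without it 4 of 6 genes were called at each time. Between 24 h and 8 h, 3 genes were higher and 1 lower, with 22.2% of all genes called. No gene of the 7 was called at 1 h, where 1.11% of all genes were, and none had an unadjusted p below 0.05 there. The largest 1 h difference was that of Mmp2, -0.23 ± 0.11 (adjusted p = 0.546).

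The agents were compared genotype by genotype at the same time. Over all times, CpG arrays were lower than Pam3CSK4 arrays for Lox (-1.14 ± 0.09, adjusted p = 8.38e-08), Mmp9 (-0.38 ± 0.08, adjusted p = 0.0146, 8 of 9 pairs) and Mmp2 (-0.29 ± 0.08, adjusted p = 0.0478, 9 of 9 pairs). The Lox value averages in 3 pairs at 1 h that lay below the median intensity, and the 6 pairs at 8 and 24 h were all lower with CpG. These 3 of the 7 genes compare with 2.26% of all genes called. The overall call of Mmp9 was lost when either 24 h condition was left out (log2 difference down to -0.15), that of Mmp2 was lost under 10 of 16 alternatives, and Lox kept its call under all 16.

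At 8 h, Lox was the only gene of the 7 called, lower with CpG by 2.38-fold (-1.25 ± 0.15, adjusted p = 6.77e-04, 3 of 3 genotypes), while 0.104% of all genes were called. At 24 h, where 2.47% of all genes were called, Lox was 4.16-fold lower with CpG (-2.06 ± 0.15, adjusted p = 1.87e-07), the 4th largest difference of 10587 genes. Mmp9 was 1.8-fold lower (-0.85 ± 0.14, adjusted p = 0.0017) and Mmp2 1.61-fold lower (-0.68 ± 0.13, adjusted p = 0.00584), each in 3 of 3 genotypes. Mmp14, Mmp12 and Timp1 were not called at 24 h, and their 95% intervals were -0.59 to 0.14, -0.45 to 0.01 and -0.19 to 0.31. Mmp13 was not called either (0.54 ± 0.26, adjusted p = 0.319): the difference was 1.81 in crel-/-relb-/- cells, -0.12 in relb-/- cells and -0.06 in WT cells. None of 6 stromal or 8 dendritic cell markers tested was called between the agents at 24 h, while 3 of 10 macrophage and monocyte markers were higher and 2 lower with CpG and 2 of 10 neutrophil markers were lower.

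**Figure D3:**
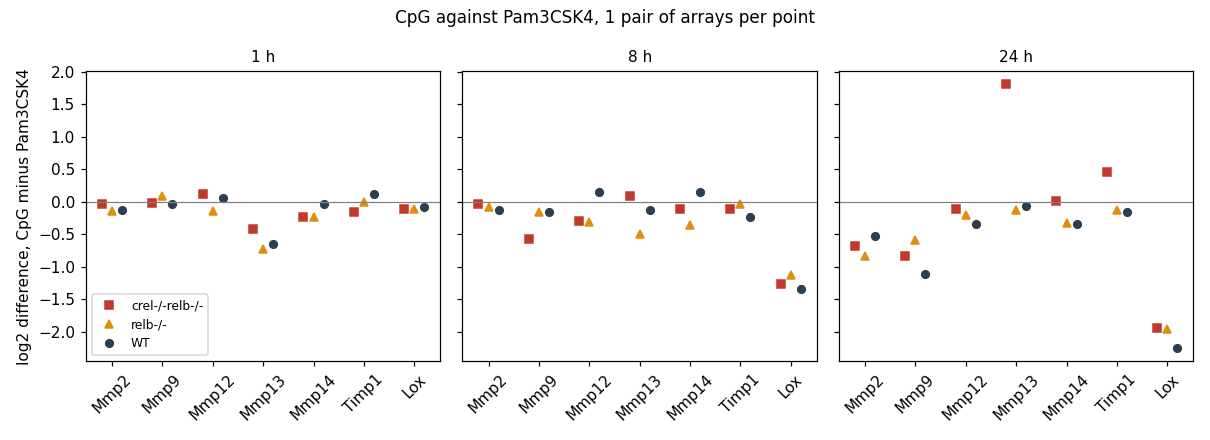
Log2 difference between CpG and Pam3CSK4 for each of the 7 genes at each time, 1 point per genotype, with 0 as no difference. Lox lies near -2 at 24 h in all 3 genotypes, and Mmp13 has a single high point at 24 h, the crel-/-relb-/- pair.

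Across genotypes, Mmp2 and Timp1 differed in every pairing, in opposite directions. Mmp2 had a lowest, median and highest intensity of 329.8, 475.6 and 1236 in crel-/-relb-/-, 159.1, 199.0 and 489.0 in relb-/-, and 242.5, 338.4 and 1044 in WT cells. It was 1.77-fold lower in relb-/- than in WT cells (-0.82 ± 0.09, adjusted p = 1.4e-06) and 1.29-fold higher in crel-/-relb-/- cells than in WT (0.37 ± 0.09, adjusted p = 0.00531). The crel-/-relb-/- level was therefore 2.28-fold above the relb-/- level (1.19 ± 0.09, adjusted p = 3.72e-09). All 7 conditions showed each direction, and all 3 calls held under each of 17 alternatives.

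Timp1 ran the other way. It was 1.26-fold higher in relb-/- than in WT cells (0.33 ± 0.08, adjusted p = 0.00911) and 1.38-fold lower in crel-/-relb-/- cells than in WT (-0.47 ± 0.08, adjusted p = 3.24e-04), each in 7 of 7 conditions. Between crel-/-relb-/- and relb-/- cells it was 1.74-fold lower (-0.80 ± 0.08, adjusted p = 4.37e-07), and the ranges of these genotypes did not overlap. Its second probe gave 0.29, -0.46 and -0.75 for the same 3 comparisons, all called. Genotype took 75.4% of the variance of Timp1 over the 21 arrays and condition 16%, whereas for Lox condition took 98.2% and genotype 0.943%. The condition share of Lox holds the late rise that is in part built into the filter. Its genotype share is compressed by the early arrays, where it lay below the median intensity. For Mmp2 the split was 38.1% genotype and 59.6% condition.

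Mmp9 and Lox were both lower in relb-/- than in WT cells. Mmp9 was 1.52-fold lower (-0.61 ± 0.09, adjusted p = 1.41e-04, 7 of 7 conditions), and crel-/-relb-/- cells lay above relb-/- cells by 0.46 ± 0.09 (adjusted p = 8.81e-04, 7 of 7 conditions). Between crel-/-relb-/- and WT cells Mmp9 was not called (-0.14, 95% interval -0.33 to 0.05, adjusted p = 0.329). Lox was lower in crel-/-relb-/- cells than in WT over all conditions (-0.40 ± 0.10, adjusted p = 0.00966) and in 4 of 4 conditions at 8 and 24 h, while at 0 and 1 h it was too dim to compare. Its difference between relb-/- and WT cells was -0.32 ± 0.10, lower in 4 of 4 conditions at 8 and 24 h and just past the threshold (adjusted p = 0.0463), and that call was lost without any filter on dim genes (0.0537) and without any 1 of 5 conditions (adjusted p up to 0.157). Between crel-/-relb-/- and relb-/- cells Lox differed by -0.08, with a 95% interval of -0.30 to 0.13.

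Mmp12 was higher in crel-/-relb-/- cells than in WT by 0.28 ± 0.07 (adjusted p = 0.00993, 6 of 7 conditions), a call lost without CpG 1 h (adjusted p = 0.0539). Against relb-/- cells it was higher in 7 of 7 conditions by 0.17 ± 0.07, which was not called (adjusted p = 0.114). Mmp13 and Mmp14 were called in no comparison of genotypes over all conditions. Their 95% intervals were -0.55 to 0.16 and -0.36 to 0.12 for relb-/- minus WT, and -0.54 to 0.17 and -0.35 to 0.13 for crel-/-relb-/- minus WT.

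In all, 1 of the 7 genes was higher and 3 were lower in relb-/- than in WT cells, where 11.7% of all genes were called. In crel-/-relb-/- against WT cells 2 were higher and 2 lower, with 15.4% of all genes called, and in crel-/-relb-/- against relb-/- cells 2 were higher and 1 lower, with 19.8% called. The 2 comparisons with WT share the WT arrays, and all 3 comparisons share arrays pairwise. Of 10 macrophage and monocyte markers tested, 2 were higher and 4 lower in relb-/- than in WT cells, and 6 were higher and 1 lower in crel-/-relb-/- than in relb-/- cells. Of 8 dendritic cell markers tested, none was higher and 2 were lower in relb-/- than in WT cells, and 2 were higher and 4 lower in crel-/-relb-/- cells than in WT. Of 10 neutrophil markers tested, 3 were higher and 2 lower in relb-/- than in WT cells. In crel-/-relb-/- against relb-/- cells 6 were higher and 2 lower. Of 6 stromal markers tested, none was called in relb-/- against WT cells, and 2 were higher and none lower in crel-/-relb-/- than in relb-/- cells.

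**Figure D4:**
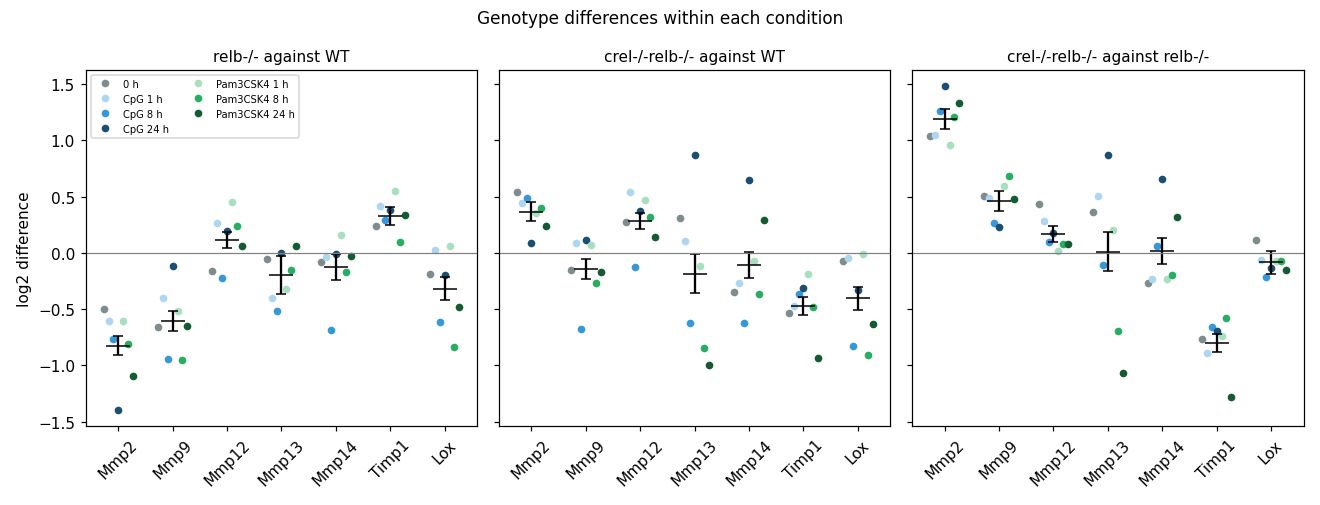
Log2 difference between genotypes for each of the 7 genes in each of the 7 conditions, 1 point per condition, with black bars for the fitted difference ± its standard error and 0 as no difference. Mmp2 points lie below 0 for relb-/- minus WT and above 0 for crel-/-relb-/- minus WT, and Timp1 points lie the other way round.

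The genotype differences were also taken over the 8 and 24 h arrays alone, 4 per genotype. In relb-/- against WT cells Mmp2 was 2.02-fold lower (-1.02 ± 0.09, adjusted p = 1.07e-06), Mmp9 1.59-fold lower (-0.67 ± 0.12, adjusted p = 0.00144) and Lox 1.44-fold lower (-0.53 ± 0.10, adjusted p = 0.00167), each in 4 of 4 conditions, and 6.8% of all genes were called. Timp1 was not called there by its brighter probe (0.28 ± 0.11, adjusted p = 0.135) or by the other (0.22 ± 0.11, adjusted p = 0.26). In crel-/-relb-/- against WT cells Lox was 1.59-fold lower (-0.67 ± 0.10, adjusted p = 1.06e-04), Timp1 1.44-fold lower (-0.52 ± 0.11, adjusted p = 0.00308) and Mmp2 1.24-fold higher (0.31 ± 0.09, adjusted p = 0.045), with 10.2% of all genes called. The Mmp2 call was lost under 11 of 17 alternatives (adjusted p up to 0.185), among them the fit without the crel-/-relb-/- CpG 24 h array (0.0524). Between crel-/-relb-/- and relb-/- cells Mmp2 and Mmp9 were higher (1.32 ± 0.09 and 0.42 ± 0.12) and Timp1 lower (-0.80 ± 0.11), with 14.8% called, and the Mmp9 call was lost without that array (adjusted p = 0.0545), without Pam3CSK4 8 h (0.139) and without Pam3CSK4 24 h (0.0964).

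Whether a difference was larger at 8 and 24 h than at 0 and 1 h was tested with an interaction term, and limma called none of the 7 genes in any of the 3 comparisons. The shares of all genes called were 0.17% for relb-/- against WT, 0.378% for crel-/-relb-/- against WT and 0.52% for crel-/-relb-/- against relb-/-. At an unadjusted p below 0.05 the counts were 2, 1 and 1 genes. The share of all genes at that looser threshold was not counted, so these counts cannot be set against the shares above. Lox in crel-/-relb-/- against WT cells came nearest, with a late minus early difference of -0.63 ± 0.15 (adjusted p = 0.0737), and without the crel-/-relb-/- CpG 24 h array it was -0.69 (adjusted p = 0.0369). At the early times Lox was below the median intensity in all genotypes, where differences are compressed.

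The crel-/-relb-/- CpG 24 h array decided the late result of Mmp13. With it, crel-/-relb-/- cells differed from WT cells at the late times by -0.40 ± 0.21 (adjusted p = 0.284 among all probes tested), and without it by -0.80 ± 0.12 (adjusted p = 2.72e-04). Against relb-/- cells the values were -0.25 ± 0.21 (adjusted p = 0.501) with the array and -0.65 ± 0.12 (adjusted p = 0.0013) without it. The late minus early difference against WT was -0.50 ± 0.32 (adjusted p = 0.721) with the array and -0.90 ± 0.17 (adjusted p = 0.0345) without it. Against relb-/- cells it was -0.61 ± 0.32 (adjusted p = 0.543) with the array and -1.01 ± 0.17 (adjusted p = 0.0138) without it. The second and dimmest probes were called for neither without the array (adjusted p = 0.101 to 0.558). The second Mmp13 probe had 201.8 on that array, against 141.3 in relb-/- and 143.3 in WT cells, and 95.9 in crel-/-relb-/- cells with Pam3CSK4 at 24 h, against 195.4 in relb-/- and 161.3 in WT cells. Without the array this probe gave -0.83 ± 0.16 against WT (adjusted p = 0.00271) and the dimmest probe -0.27 ± 0.08 (adjusted p = 0.0399). The fits of the second and dimmest probes without that array were chosen after the data had been seen.

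**Figure D5:**
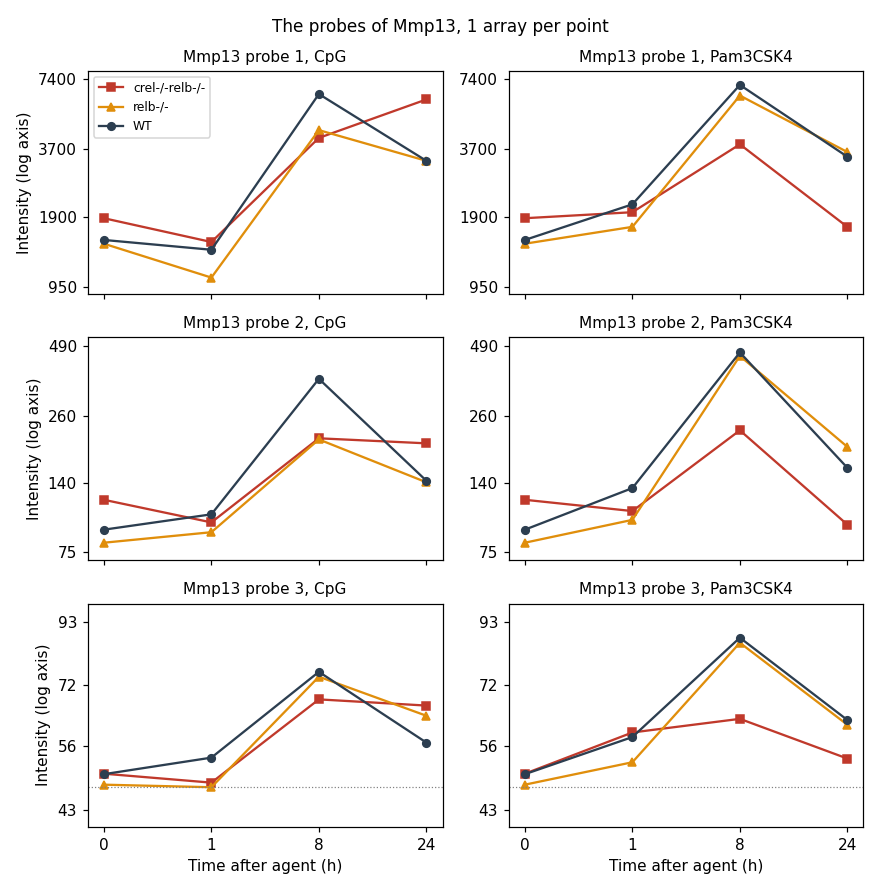
Normalized intensity (log axis) of the 3 Mmp13 probes against hours of stimulation (times evenly spaced), 1 point per array, with genotypes by colour and marker, a panel for each agent and the median of all intensities, 47.3, as a dotted line. The crel-/-relb-/- CpG 24 h point is the highest of its condition for the brightest and second probes (6030 and 201.8), whereas the crel-/-relb-/- Pam3CSK4 24 h point is the lowest (1715 and 95.9).

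Over the 21 arrays, Lox and Mmp9 were the closest pair among the 7 genes, with Pearson's r of 0.965. Mmp13 and Mmp14 had an r of 0.835, and Mmp2 and Timp1 one of -0.345. These values describe arrays that share times, agents and genotypes. Every r of Lox given here holds the late rise that is in part built into the filter, with its early values below the median intensity. Among all genes tested, those nearest to Lox were Col5a1, a fibrillar collagen chain (r = 0.968), and Cyp4v3 (0.967). Nearest to Mmp9 were Syt11 and Gstm2 (0.984 each), and nearest to Mmp2 was Sort1, the sorting receptor sortilin (0.944). Mmp14 lay nearest to the formyl peptide receptor gene Fpr2 (0.979) and to Tlr6 (0.977), and Mmp13 to the hexose transporter gene Slc2a6 (0.928). Timp1 lay nearest to the cytokine gene Il15 (0.892) and among its 3 nearest was the costimulatory receptor gene Cd40 (0.871), while Mmp12 had no neighbour above 0.859 (Emc7).

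Other genes of the same pathways were listed by family. Of 9 other matrix metalloproteinase genes tested, none was called at 8 h, and at 24 h Mmp8, the neutrophil collagenase, was higher (1.70, adjusted p = 2.38e-05) and Mmp23 lower (-0.29, adjusted p = 0.0433). Mmp8 had 82.4 to 345.7 over the 6 arrays of 24 h against 57.7 to 72.1 at 0 h. Mmp23 was also the only one of the 9 called between genotypes, lower in relb-/- than in WT cells (-0.70, adjusted p = 4.76e-06) and in crel-/-relb-/- than in WT cells (-0.25, adjusted p = 0.0346). Of 5 inhibitors and regulators tested, 1 was higher and 1 lower at 24 h against 0 h, namely Timp2 (0.74) and Timp3 (-0.33). At 8 h Timp2 was the only one of the 5 called, and it was lower than at 0 h (-0.66, adjusted p = 0.0012). Timp2, whose product also takes part in activating gelatinase A, was lower in relb-/- than in WT cells (-0.56, adjusted p = 0.00168) and higher in crel-/-relb-/- than in relb-/- cells (0.73, adjusted p = 6.2e-05). Timp3 was lower in crel-/-relb-/- cells than in WT (-0.66, adjusted p = 3.34e-06).

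Of 9 matrix substrates tested, 4 were higher and none lower at 24 h against 0 h, as at 8 h: Col5a1 (2.01 at 24 h), the thrombospondin gene Thbs1 (1.05), the laminin chain Lamc1 (0.32) and the basement membrane collagen chain Col4a2 (0.19). Col5a1 had 369.9 to 422.4 with CpG and 588.5 to 686.9 with Pam3CSK4 at 24 h, against 107.2 to 146.6 at 0 h, and at 24 h it was lower with CpG than with Pam3CSK4 (-0.69, adjusted p = 0.00623). Of 7 lysyl oxidase relatives and collagen-crosslinking genes, 1 was higher and 2 lower at 24 h: the lysyl hydroxylase gene Plod3 (0.52) rose, while Plod1 (-0.59) and P4hb (-0.40) fell, and none was called between genotypes over all conditions. Over the 8 and 24 h arrays alone, Bmp1 was lower in crel-/-relb-/- cells than in WT (-0.31, adjusted p = 0.0239), and Plod3 (0.43) and P4ha2 (0.40) were higher in crel-/-relb-/- than in relb-/- cells. Of 8 ADAM and ADAMTS proteases, Adam17, the shedding enzyme of tumour necrosis factor, was the only one called at 24 h (1.45, adjusted p = 5.55e-11). Of 4 genes of plasminogen activation, none was called at 24 h, and the urokinase receptor gene Plaur was lower in relb-/- than in WT cells (-0.35, adjusted p = 0.0107).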

How the data were processed

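Gene expression was measured on 21 Illumina arrays, and groups were taken from the sample labels. The intensity values are the authors' deposited normalized linear signals, with a normalization method not given in the sources used. A second deposited table, whose 21 columns match no sample label, was not used. Probes were named by the platform annotation, updated by Entrez ID, and a gene was represented by its brightest probe by mean. log2 of the intensities was fitted with limma 3.58.1 in R 4.3.3 (genotype and condition, 12 residual degrees of freedom; with a genotype by late term, 10), with an intensity trend and two-sided tests, over 10587 genes. The fit was run on data simulated from its own additive model with independent noise, which cannot show how repeated cultures would vary. The alternatives covered background offsets, the filter, probe choice, array weights, and leaving out arrays or conditions. Neighbours were ranked by Pearson's r, and those named are among the 3 highest of each gene, though not all of the 3 are named. The genes, gene lists and tests were chosen with earlier results of these data known. The number of arrays limits the precision.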

Additional observations from a re-analysis of the deposited data

Results flagged for a closer look

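Mmp14 moved in opposite directions between 8 and 24 h in different genotypes. In crel-/-relb-/- cells it was higher at 24 h than at 8 h, by 0.55 with CpG and 0.43 with Pam3CSK4 on the log2 scale. In relb-/- cells it was lower, by values of -0.05 and -0.09, and in WT cells by values of -0.73 and -0.23. The change in crel-/-relb-/- cells, averaged over agents, exceeded that in WT cells by 0.97 and that in relb-/- cells by 0.56. Timp1, by its brighter probe, moved up in relb-/- cells (0.07 with CpG and 0.15 with Pam3CSK4) and down in WT cells (-0.02 and -0.10), an average gap of 0.17. Its other probe did not show this pattern, since in relb-/- cells with Pam3CSK4 it had 638.2 at 8 h and 622.7 at 24 h. None of these differences was tested, each rests on single arrays, and the Mmp14 values include the crel-/-relb-/- CpG 24 h array that stood apart.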

How the results depend on the processing

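Under 17 alternatives, 1806 values of the 7 genes were recomputed: 1748 kept their side of the threshold, 38 lost a call, 20 gained one and none that was called reversed. Among 1128 values called neither in the reported fit nor in the alternative, 36 changed sign. The late minus early count of crel-/-relb-/- against WT, 0 of 7 genes in the reported fit, was 1 with array weights and 2 without the crel-/-relb-/- CpG 24 h array, and that of crel-/-relb-/- against relb-/- was 1 without that array. Leaving out each condition in turn gave 1 to 3 genes called between CpG and Pam3CSK4, the lowest without either 24 h condition. The same gave 2 to 5 genes for crel-/-relb-/- against WT at the late times, the highest without CpG 24 h, 0 to 2 for its late minus early count and 0 to 1 for that of crel-/-relb-/- against relb-/-. The cause was not tested. Over all genes, the count called at 24 h between CpG and Pam3CSK4, 261, was 138 with array weights and 169 without the crel-/-relb-/- CpG 24 h array, the same count at 8 h, 11, ranged from 6 to 40, and that over all times, 239, was 51 without Pam3CSK4 24 h. The count at 1 h, 118, ranged from 34 to 261, that at 24 h against 8 h, 2352, was 1197 without CpG 8 h, and the late minus early counts of 18 (relb-/- against WT), 40 (crel-/-relb-/- against WT) and 55 (crel-/-relb-/- against relb-/-) went as low as 1, 10 and 11. Without Pam3CSK4 24 h the late counts of relb-/- against WT and crel-/-relb-/- against relb-/-, 720 and 1564, were 452 and 1011. The labels carry no replicate numbers. Genotypes were matched by condition, and an exact sign-flip permutation test over the 7 matched conditions (two-sided, smallest possible p 0.0156, 21 tests) gave p = 0.0625 for Lox in relb-/- against WT cells. Lox before 8 h was too dim for differences there to be measured.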
